A study of Mus musculus with 6 samples.

Results

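The genes that encode insulin-like growth factor (IGF) binding proteins, and the proteases and stanniocalcins that act on them, were followed in the mesenchyme of the continuously growing mouse incisor. They were Igfbp2, Igfbp3, Igfbp4, Igfbp5, Igfbp6, Igfbp7, Pappa, Htra1, Stc1 and Stc2, found by gene symbol, and made up 10 of the 23718 genes listed. To compare mesenchymal stem cells (MSCs) with their dividing progeny, the transit amplifying cells (TACs), RNA was sequenced from the MSC and TAC regions of the incisor, taken by laser capture microdissection. Each group had 3 samples, with replicate numbers from 1 to 3, and the methods give 3 mice per group without tying a library to a mouse, so p-values measure the spread between these samples, which may be technical. The set was picked by gene name with the MSC and TAC values of these samples already known, so the MSC to TAC differences of its members are given as a description. Counts of members that passed a threshold in the fit of all genes are printed beside the share of all genes, and no test of a member is read as a result.

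The labels give the strain of all mice as C57BL/6, whereas the methods describe a mixed background. The mice were 1 month old and had received tamoxifen 1 day before collection. MSC samples came from Gli1-CreER;tdT mice and TAC samples from Axin2-CreER;tdT mice, written in the methods as CreERT2 drivers with a tdTomato reporter at Rosa26. Every mouse thus carried an inducible Cre and a red fluorescent reporter, and no sample lacked them. The driver differed between the groups together with the region. Captured tissue was cut from sections and was not sorted, and could hold blood vessels, nerve and other cells besides those with the reporter. In such bulk samples, fewer cells of a type and less RNA per cell cannot be told apart.

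IGF1 and IGF2 are secreted growth factors that act on cells through the receptor IGF1R, while IGF2R takes up IGF2 and carries it to lysosomes. Binding proteins hold IGFs outside the cell and can keep them from the receptor or carry them to it. Proteases such as pregnancy-associated plasma protein A (PAPP-A, the product of Pappa) cut binding proteins and release the bound IGF, and the stanniocalcins STC1 and STC2 inhibit PAPP-A.

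The sequence upstream of the gene start was examined for 8 of the 10 members, for which RefSeq promoter windows of build GRCm38.p6 were at hand; Pappa and Stc1 had no window. The 250 bases before the annotated start are printed 5′ to 3′ on the strand of the gene for Igfbp3, the member with the largest difference between MSCs and TACs, and for Igfbp4 and Igfbp7, the pair of members whose levels followed each other most closely over the samples. The windows were chr11:7213924-7214173 on the minus strand for Igfbp3, chr11:99040994-99041243 on the plus strand for Igfbp4 and chr5:77408046-77408295 on the minus strand for Igfbp7. Capitals mark matches to 2 short motifs, the GC box (GGGCGG, or its complement on the other strand) and the TATA box (TATAAA).
Igfbp3: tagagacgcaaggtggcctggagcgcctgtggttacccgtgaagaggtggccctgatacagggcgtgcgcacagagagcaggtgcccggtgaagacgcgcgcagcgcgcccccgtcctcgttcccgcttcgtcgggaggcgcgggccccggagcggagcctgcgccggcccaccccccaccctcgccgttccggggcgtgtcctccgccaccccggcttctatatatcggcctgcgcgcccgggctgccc
Igfbp4: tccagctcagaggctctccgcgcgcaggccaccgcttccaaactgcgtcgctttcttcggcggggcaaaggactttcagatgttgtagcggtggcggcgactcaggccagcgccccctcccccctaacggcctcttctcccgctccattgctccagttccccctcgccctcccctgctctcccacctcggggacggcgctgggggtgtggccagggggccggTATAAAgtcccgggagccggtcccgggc
Igfbp7: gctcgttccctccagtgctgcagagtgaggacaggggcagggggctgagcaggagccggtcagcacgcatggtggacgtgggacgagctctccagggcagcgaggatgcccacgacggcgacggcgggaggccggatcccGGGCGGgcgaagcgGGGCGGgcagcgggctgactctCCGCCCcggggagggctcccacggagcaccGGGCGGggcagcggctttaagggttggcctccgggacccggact

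Igfbp7 held 4 GC boxes and no TATA box, Igfbp4 held a TATA box at position -28 from the start and no GC box, and Igfbp3 held neither. Over the 9 windows of the 8 members (Igfbp2 had 2), a GC box was found in 3 and a TATA box in 2. Among all 32851 promoter windows of the same length, 32.7% held a GC box and 12.4% a TATA box on either strand. The letters GACCACCCA, bound by GLI factors, were in 0 of the 9 windows and in 0.225% of all windows, and CTTTGAA or CTTTGAT, bound by TCF factors, were in 0 of the 9 and in 7.48% of all. A match is a description of the letters, not a site in use, and a missing match says only that these letters were not in the window. Over the 9 windows the GC content ran from 49.6% for Igfbp6 to 74.0% for Igfbp7, with Igfbp3 at 73.2%, Igfbp4 at 69.2%, Igfbp5 at 58.8% and the windows of Igfbp2 at 67.2% and 56.4%, while Htra1 was at 64.8% and Stc2 at 64.4%. Over all windows the median was 52.4% and the quartiles 45.2% and 61.2%, so Igfbp5, Igfbp6 and 1 window of Igfbp2 lay between the quartiles.

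Levels are the values the authors deposited, read numbers raised by 1 read and scaled per library, with gene length not divided out. The libraries held between about 20203200 and 108156000 estimated reads, and replicate 3 differed from the others in both groups. Mitochondrial ribosomal RNA took 8.28% to 9.07% of estimated reads in replicates 1 and 2 and 0.112% to 0.236% in replicate 3, and between 27.8% and 42.6% of listed genes had no read in replicate 3, against 6.38% to 7.88% in the others. Within a group, log2 values of replicates 1 and 2 correlated across genes at 0.983 and 0.990, and those of replicate 3 with either at 0.792 to 0.870. The Gli1 value was 256, 245 and 422 in MSCs and 153, 141 and 396 in TACs, and the Axin2 value was 58.3, 48.0 and 12.01 in MSCs and 56.8, 63.9 and 34.1 in TACs, so both genes that drove the reporters overlapped between the groups (limma adjusted p 0.718 and 0.758). Mki67, a gene of dividing cells, was higher in all TAC values of replicates 1 and 2 but overlapped through replicate 3, at 137, 130 and 41.5 in MSCs and 593, 629.7 and 122 in TACs (limma adjusted p 0.361, or 0.0442 with the replicate block).

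Of the 10 members, 7, namely Igfbp2, Igfbp3, Igfbp4, Igfbp5, Igfbp6, Igfbp7 and Stc2, were higher in every MSC sample than in any TAC sample. Pappa, Htra1 and Stc1 overlapped between the groups. At each replicate number taken alone, 9 of the 10 members were lower in TACs than in MSCs, all but Stc1. Over the 15391 genes with a mean value of at least 1, 12.2% were higher in every MSC sample than in any TAC sample, 12.3% were lower in every MSC sample, and 26.4% were lower in TACs at each replicate number. Nothing is read from these shares, since the members were picked on the same values.

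**Figure D1:**
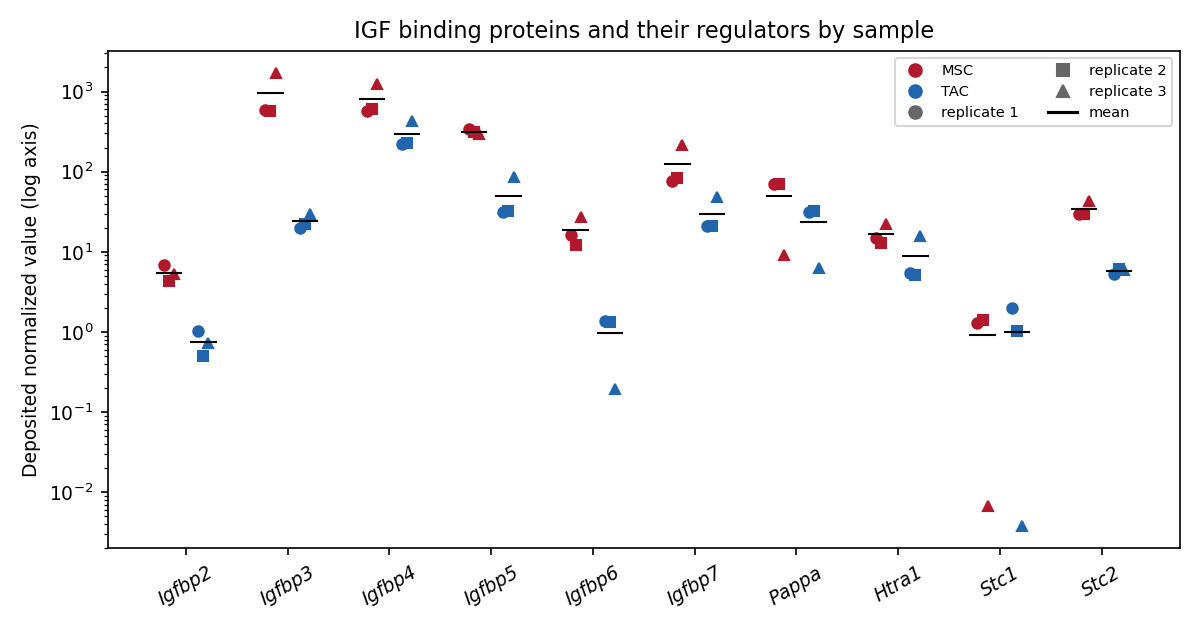
Deposited normalized value (log axis) of each member in the 3 MSC samples (red) and the 3 TAC samples (blue), with the replicate number as the marker and the group mean as a line. Red and blue points are separate for 7 members, overlap for Pappa, Htra1 and Stc1, and the lowest Stc1 points are the replicate 3 libraries with 0 reads.

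Igfbp3, the main carrier of IGFs in blood, had MSC values of 589, 570.0 and 1688. In TACs it was at 19.9, 22.4 and 29.7. Every MSC value was far above every TAC value, and replicate 3 of the MSCs stood well above the others. The means were 949 ± 640 in MSCs and 24.0 ± 5.05 in TACs (SD, n = 3), a ratio of 39.5. The ratio was 29.5, 25.4 and 56.9 within replicates 1, 2 and 3.

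Igfbp6, whose product prefers IGF2 to IGF1, was at 16.2, 12.3 and 27.0 in MSCs and at 1.38, 1.34 and 0.193 in TACs. The groups were separate, and the lowest TAC value was that of replicate 3. The TAC values rested on 62, 55 and 50 estimated reads in replicates 1, 2 and 3. Its means were 18.5 ± 7.64 and 0.972 ± 0.674 (SD, n = 3), a ratio of 19.0, but the ratio within replicates ran from 9.15 to 140. The size of the Igfbp6 difference thus varied most through replicate 3.

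Igfbp5, which binds to the extracellular matrix, had steady values in MSCs, at 336, 316 and 292. In TACs it was at 31.7, 31.9 and 84.6, so that the spread lay on the TAC side and came from replicate 3. The ratio of the means, 315 ± 22.3 to 49.4 ± 30.5 (SD, n = 3), was 6.37, and it was 10.6, 9.92 and 3.45 within the replicates. Igfbp2, a further IGF carrier of serum, had the lowest mean of the binding proteins in both groups, although in TAC replicate 3 Igfbp6 was lower. It was at 6.82, 4.29 and 5.35 in MSCs and 1.03, 0.504 and 0.717 in TACs. The groups did not overlap, and the ratio of the means of 5.49 ± 1.27 and 0.750 ± 0.264 (SD, n = 3) was 7.32. The TAC values of Igfbp2 stood on 20 to 188 estimated reads.

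Igfbp2 and Igfbp5 lie next to each other on mouse chromosome 1, at chr1:72824503-72852474 on the plus strand and chr1:72857932-72874884 on the minus strand (mm10), with 5457 bases between them. Their MSC to TAC ratios over all samples, 7.32 and 6.37, were close, but within replicates that of Igfbp2 ran from 6.63 to 8.52 and that of Igfbp5 from 3.45 to 10.6.

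Igfbp4, a binding protein that PAPP-A cuts, was at 578, 598 and 1248 in MSCs and at 221, 229 and 429 in TACs. Both groups had their highest value in replicate 3, and the lowest MSC value was above the highest TAC value. The means were 808 ± 381 and 293 ± 118 (SD, n = 3), a ratio of 2.76, and the ratio within replicates 1, 2 and 3 stayed at 2.61, 2.62 and 2.91. Igfbp7, which binds IGFs weakly and is found around blood vessels, followed the same course, at 75.5, 82.8 and 215 in MSCs and 21.3, 21.0 and 47.7 in TACs. Its means were 125 ± 78.8 and 29.98 ± 15.3 (SD, n = 3), a ratio of 4.16, with 3.55, 3.95 and 4.52 within the replicates. For both genes the spread within a group was mostly the step to replicate 3, which both groups shared. Igfbp7 (chr5:77349240-77408041) overlaps Polr2b and the antisense gene Gm34648 on the other strand, and reads of these genes cannot be told apart where the counting took no account of strand, which was not stated.

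Stc2, an inhibitor of PAPP-A, was at 29.8, 29.8 and 42.8 in MSCs and at 5.30, 6.07 and 5.88 in TACs. Its TAC values had the smallest SD of the set relative to the mean, and the groups were well apart. The means were 34.2 ± 7.495 and 5.75 ± 0.3997 (SD, n = 3), a ratio of 5.94, with 5.63, 4.92 and 7.29 within the replicates.

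The related inhibitor Stc1 was scarce, at 1.31, 1.42 and 0.00666 in MSCs and at 1.97, 1.03 and 0.00379 in TACs. The last value of each group stood for 0 reads, where each read would have added 0.00666 in the MSC and 0.00379 in the TAC library. The replicate 3 libraries were the deepest of their groups, while the others had 42 to 89 estimated Stc1 reads. The groups overlapped, and Stc1 was below the mean value of 1 set for the fit. Stc1 and Stc2 thus differed in both level and pattern. Stc1 (chr14:69029289-69041401) overlaps the antisense gene Gm41192 on the other strand, and the limit on strand given for Igfbp7 applies. The annotation that gave its exon length places Stc1 at 69029238-69041804, so its level per kb is less sure.

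Pappa was at 69.5, 70.5 and 9.15 in MSCs and at 31.5, 32.1 and 6.35 in TACs. In replicates 1 and 2 the MSC value was 2.20 times the TAC value each time, and in replicate 3 it was 1.44 times. Replicate 3 was far lower in both groups, which made the groups overlap. The means were 49.7 ± 35.1 and 23.3 ± 14.7 (SD, n = 3), a ratio of 2.13, which is smaller than the spread between replicates. Htra1, a secreted serine protease that cuts binding proteins and other matrix proteins, was at 14.8, 13.01 and 22.1 in MSCs and 5.36, 5.20 and 15.8 in TACs. Its TAC value in replicate 3 lay above the MSC values of replicates 1 and 2, so these groups overlapped as well. The ratio of its means, 16.6 ± 4.84 to 8.79 ± 6.07 (SD, n = 3), was 1.89, and it was 2.75, 2.50 and 1.40 within the replicates. Htra1 (chr7:130936111-130985660) overlaps Fgfr2 on the other strand, and the same limit on strand applies.

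To place these differences on a common scale, limma was fitted to log2(value + 1) over all 15391 genes, which included 9 of the 10 members. On this scale, which understates the change of low genes, the log2 fold change of TAC against MSC was -5.07 for Igfbp3 (SE 0.47), -3.30 for Igfbp6 (SE 0.55) and -2.80 for Igfbp5 (SE 0.42). It was -2.36 for Stc2 (SE 0.34), -1.95 for Igfbp7 (SE 0.51), -1.88 for Igfbp2 (SE 0.49) and -1.43 for Igfbp4 (SE 0.48). The smallest differences were those of the proteases, at -0.98 for Htra1 (SE 0.51) and -0.90 for Pappa (SE 0.91). The members' median was -1.95 and all 9 values were negative, beside a median of 0.03 over all genes tested, of which 7472 were negative.

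Igfbp3 and Stc2, 2 of the 9 members fitted, passed an adjusted p of 0.05, as did 0.383% of all genes for higher values in MSCs and 0.039% for higher values in TACs. With the replicate number as a block, 4 of the 9 passed, Igfbp4 and Igfbp7 being added, beside 0.884% and 0.604% of all genes. At an unadjusted p of 0.05 there were 7 of 9, beside 6.43% and 5.42%. These counts come from the contrast that was known when the members were picked, and nothing is read from them. The counts of members moved with those of the whole table as libraries were left out. In replicates 1 and 2 alone 9 of 9 members passed, beside 24.2% of all genes with higher values in MSCs. When any single library among replicates 1 and 2 of either group was omitted, 0 of 9 members and 0 of all genes passed by limma, with 6 or 7 members and 1028 to 1367 genes at an unadjusted p of 0.05. Without TAC replicate 3 Igfbp5 passed, beside 0.208% of all genes for higher values in MSCs and 0.026% for higher values in TACs. Without MSC replicate 3 Igfbp3, Igfbp6 and Stc2 passed, beside 1.31% and 0.591%.

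**Figure D2:**
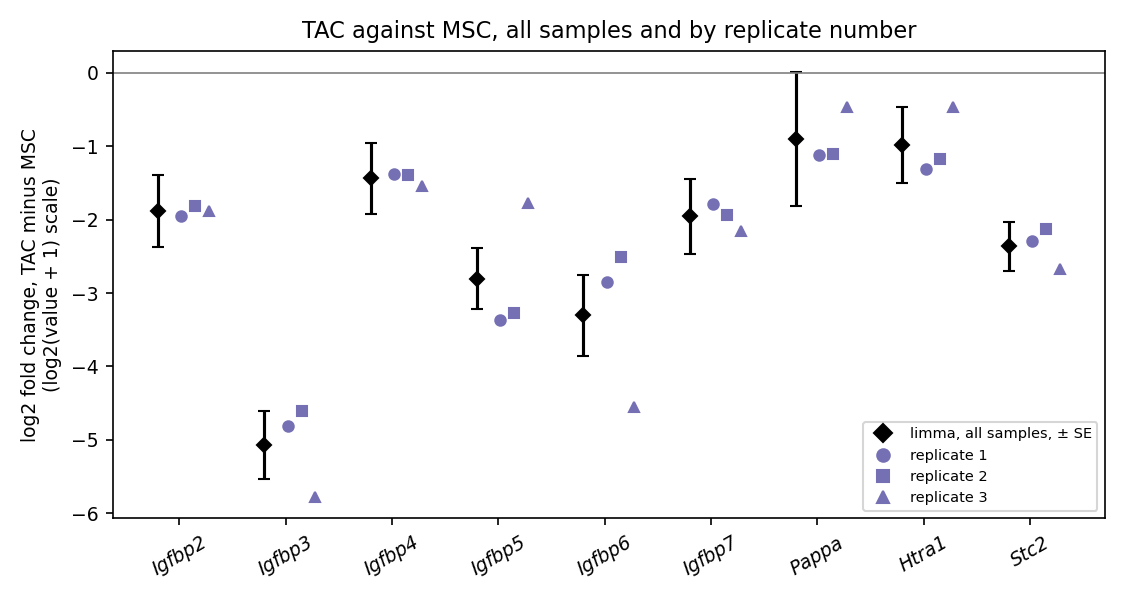
Log2 fold change of TAC against MSC for the 9 members fitted, on the log2(value + 1) scale: black diamonds with bars are limma's estimate over all 6 samples ± SE, and purple markers the difference within each replicate number. All markers lie below 0, and replicate 3 departs most from the others for Igfbp5, Igfbp6 and Igfbp3.

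Because replicate 3 differed in both groups, its position was described for each member on the log2(value + 1) scale, as replicate 3 minus the mean of replicates 1 and 2. Igfbp4 and Igfbp7 were higher in replicate 3 by a like amount in both groups, at 1.09 and 0.93 for Igfbp4 and 1.43 and 1.14 for Igfbp7 in MSCs and TACs. Pappa was lower in both, at -2.81 and -2.16, and so was Stc1, at -1.23 and -1.29. For these genes replicate 3 departed in the same direction in both groups. In MSCs and TACs it was also higher, by unlike amounts, for Igfbp3 (1.54 and 0.47), Htra1 (0.64 and 1.42) and Stc2 (0.51 and 0.04). Igfbp5 (-0.16 and 1.39) and Igfbp6 (0.89 and -0.98) moved apart between the groups, which is where their within-replicate ratios diverged. Igfbp2 hardly moved, at -0.02 in MSCs and -0.03 in TACs. Over all genes tested the median was -0.55 in MSCs and -0.20 in TACs. Library composition moved with replicate 3 as given above, and its part in these values was not tested.

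**Figure D3:**
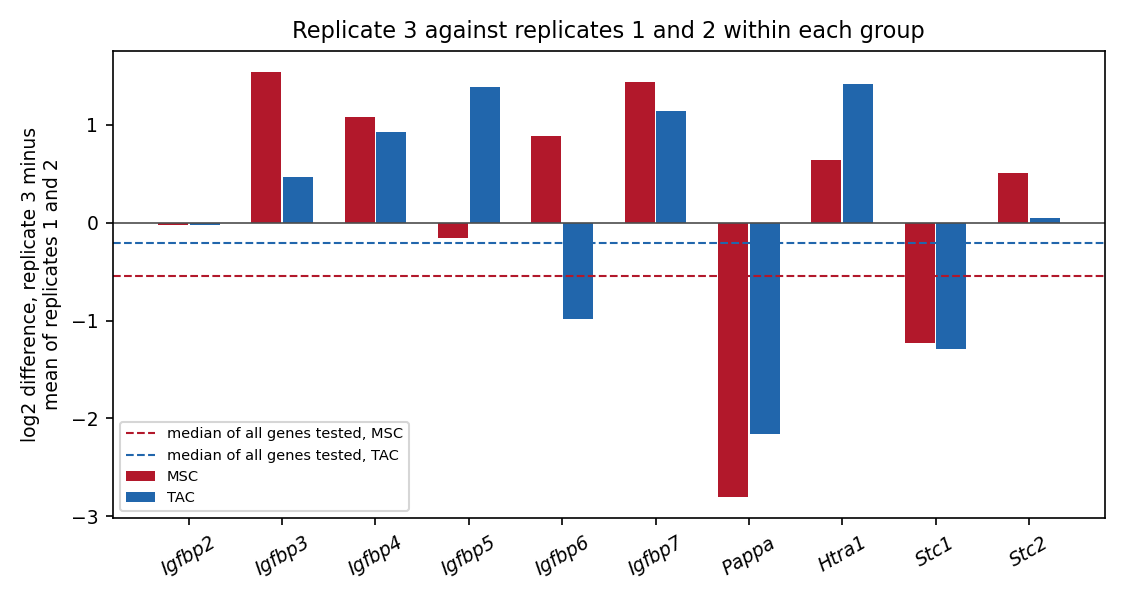
Difference on the log2(value + 1) scale between replicate 3 and the mean of replicates 1 and 2 within MSCs (red) and TACs (blue) for each member, with dashed lines at the median of all genes tested. Bars of Igfbp4, Igfbp7, Pappa and Stc1 are alike in both groups, while those of Igfbp5 and Igfbp6 point in opposite directions.

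The members also differed in how alike their profiles were over the 6 samples. After each gene's own mean was subtracted, the closest pair on the log2(value + 1) scale was Igfbp4 and Igfbp7, with a Euclidean distance of 0.72, followed by Igfbp4 and Htra1 at 0.79 and Igfbp2 and Stc2 at 0.93. The nearest member to Igfbp3 was Igfbp6, at 2.54, and the farthest was Pappa, at 6.58. Outside the set, the 5 tested genes nearest to Igfbp3 were Cacna2d2 (1.15), Mgp (1.26), Sema3g (1.43), Atp1b2 (1.68) and Smoc2 (1.74). Their distances are smaller than that of any other member to Igfbp3. They were picked as the smallest over all genes tested, so nothing is read from that. Mgp, which encodes an inhibitor of calcification, was at 55.7, 51.3 and 277 in MSCs and at 2.63, 2.57 and 6.94 in TACs, and shared with Igfbp3 the high value in MSC replicate 3. The distance is a description over 6 samples that share libraries.

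To compare levels between genes, values were divided by the length of each gene's merged exons in kilobases (kb). In MSCs the mean level per kb was highest for Igfbp3, at 303 ± 204, followed by Igfbp4 at 183 ± 86.4, Igfbp7 at 103 ± 65.1, Igfbp5 at 52.4 ± 3.72 and Igfbp6 at 16.6 ± 6.87 (SD, n = 3). Between neighbours the first 4 overlapped within their SDs, and Igfbp6 lay below them, but the order of these 5 was the same in each MSC library. Below them came Stc2 at 6.60 ± 1.45, Htra1 at 5.78 ± 1.68, Pappa at 4.51 ± 3.18 and Igfbp2 at 2.97 ± 0.689, which as neighbours did not differ beyond their spread, and Stc1 at 0.217 ± 0.187.

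In TACs the order was another. Igfbp4 led at 66.4 ± 26.7 per kb, followed by Igfbp7 at 24.8 ± 12.7. Igfbp5 at 8.22 ± 5.08 and Igfbp3 at 7.67 ± 1.61 did not differ beyond their spread, and they changed places between libraries. Htra1 was at 3.05 ± 2.11, Pappa at 2.11 ± 1.33, Stc2 at 1.11 ± 0.0772, Igfbp6 at 0.874 ± 0.606, Igfbp2 at 0.406 ± 0.143 and Stc1 at 0.239 ± 0.234 (SD, n = 3), and neighbours among these did not differ beyond their spread. Igfbp3 led in MSCs and Igfbp4 in TACs.

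The same difference was seen in the shares of the summed level per kb of Igfbp2 to Igfbp7. Igfbp3 made up 41.3%, 40.3% and 50.1% of the sum in the MSC libraries and 7.85%, 8.63% and 5.89% in the TAC libraries. Igfbp4 made up 28.7%, 29.97% and 26.3% in MSCs and 61.8%, 62.3% and 60.5% in TACs. Igfbp7 was at 15.1% ± 1.43 in MSCs and 22.4% ± 1.92 in TACs, and Igfbp5 at 9.48% ± 4.31 and 7.22% ± 1.34 (SD, n = 3). Igfbp6 was at 2.63% ± 0.496 in MSCs and 1.03% ± 0.799 in TACs (SD, n = 3). Shares of Igfbp3, Igfbp4, Igfbp6 and Igfbp7 did not overlap between the groups, whereas those of Igfbp2 and Igfbp5 did. Igfbp6 and Igfbp2 together stayed a small part in every library. The sum itself was 456, 452 and 1076 per kb in MSCs and 81.1, 83.1 and 161 in TACs, so Igfbp4 had a larger share in TACs at a lower level. A share of one gene depends on the levels of all the others.

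**Figure D4:**
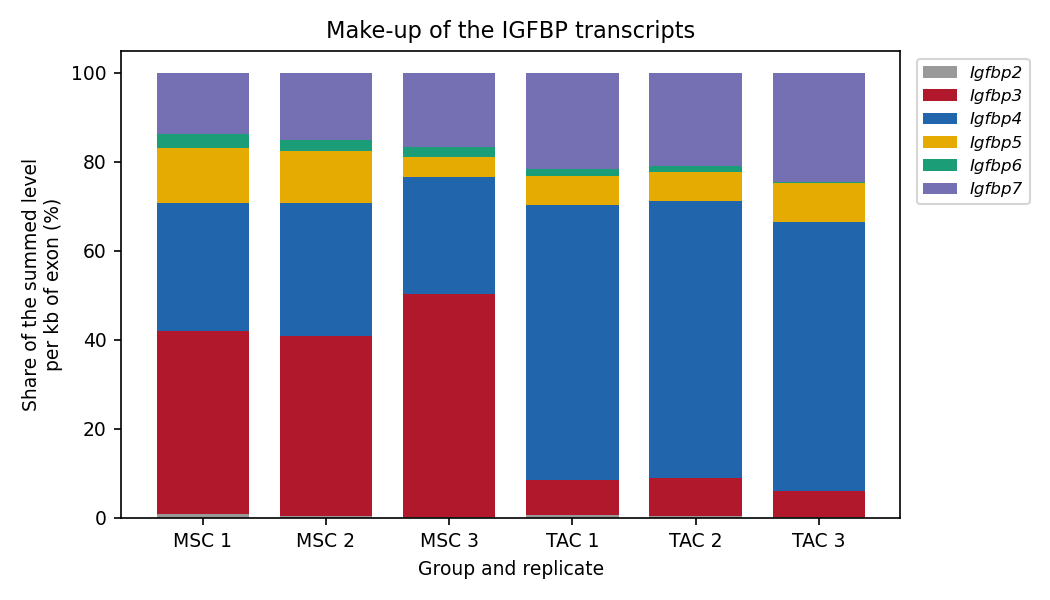
Share (%) of each IGF binding protein transcript in the summed level per kb of exon, one bar per library. Igfbp3 is the largest part of the MSC bars and Igfbp4 the largest part of the TAC bars, at 61.5% ± 0.952 (SD, n = 3).

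The binding protein sum was set against the ligands, Igf1 plus Igf2 per kb, in the same library. The ratio was 4.57, 4.44 and 9.66 in MSCs and 5.37, 5.56 and 6.46 in TACs. The groups overlapped, with means of 6.22 ± 2.98 and 5.79 ± 0.583 (SD, n = 3), a difference smaller than the spread between replicates. The higher MSC mean rested on replicate 3: without it the MSC mean was 4.50, below each TAC library, and within replicates 1 and 2 the TAC ratio was the higher one. The ligand sum was mostly Igf2, and the ratio concerns transcripts and not the proteins.

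Substrates were then set against their proteases, again per kb. Igfbp5 over Htra1 was 10.9, 11.6 and 6.32 in MSCs and 2.83, 2.94 and 2.57 in TACs, and did not overlap. Igfbp4 over Pappa was 20.8, 21.2 and 341 in MSCs and 17.5, 17.8 and 169 in TACs. The inhibitor over its protease, Stc2 over Pappa, was 0.915, 0.902 and 9.97 in MSCs and 0.358, 0.403 and 1.97 in TACs. Both ratios with Pappa were higher in MSCs within each replicate number, and replicate 3 had by far the largest values.

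Other genes of the IGF system came from 3 lists, and these were tested as part of the fit of all genes. The lists too were chosen with earlier results of these data known. The paper also reports Igf2 as enriched in MSCs from the same samples. Their counts and p-values are thus given as a description. Of the IGF and insulin ligands and receptors, 6 were tested, and 1, Igf2, passed the adjusted threshold, higher in MSCs. For this list and the next ones, the shares of all genes past it were 0.383% for higher values in MSCs and 0.039% for higher values in TACs, and 6.43% and 5.42% at an unadjusted p under 0.05. Igf2 was at 558, 569 and 635 in MSCs and at 82.7, 80.4 and 137 in TACs, with means of 587 ± 41.9 and 99.9 ± 31.8 (SD, n = 3). The groups did not overlap, and limma gave a log2 fold change of -2.59 (SE 0.33) with a Benjamini-Hochberg adjusted p of 0.0389. The limma adjusted p of Igf2 was 0.235, 0.228, 0.237 and 0.239 without MSC replicate 1, MSC replicate 2, TAC replicate 1 and TAC replicate 2 in turn, with the log2 fold change at -2.45 or below, and the call was also lost under median-ratio scaling (0.0754) and without the variance trend (0.0733). Per kb, Igf2 stood at 103 ± 7.31 in MSCs, near Igfbp7.

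Igf1 did not pass. It was at 22.5, 24.8 and 3.89 in MSCs and 6.55, 9.02 and 10.2 in TACs, higher in MSCs in replicates 1 and 2 and lower in replicate 3 (log2 fold change -0.60, SE 0.68, limma adjusted p 0.796). Its log2 fold change ran from -1.38 without MSC replicate 3 to -0.18 without MSC replicate 2. The receptors did not pass either, with -0.31 for Igf1r (SE 0.51, limma adjusted p 0.883) and -0.66 for Igf2r (SE 0.55, limma adjusted p 0.700). The Igf2r value was -0.086 without TAC replicate 3 and -1.003 without MSC replicate 3, and that of Igf1r was 0.071 and -0.77. Insrr, named after its values were seen, was the other gene of the list at an unadjusted p under 0.05, at 8.26, 11.5 and 16.3 in MSCs and 0.460, 1.15 and 0.663 in TACs. The median log2 fold change over the 6 was -0.63.

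Of further proteases and partners of the binding proteins, 5 were listed and 3 tested, and 0 passed the adjusted threshold by limma, with 1 at an unadjusted p under 0.05. This was Adam12, named after its values were seen, a metalloprotease that can cut Igfbp3 and Igfbp5 products, at 27.4, 23.2 and 0.00666 in MSCs and 78.8, 72.2 and 50.2 in TACs. Adam12 was the one gene of these lists at that level that was higher in TACs, and its MSC replicate 3 value stood for 0 reads. Of other genes with an IGF binding protein domain, 7 were tested and 1, Ctgf, passed. Ctgf, a matrix-associated growth regulator, was at 47.8, 47.5 and 61.3 in MSCs and 10.3, 7.93 and 5.49 in TACs (log2 fold change -2.60, SE 0.34, limma adjusted p 0.0389). That call was lost without any one of MSC replicates 1 and 2 and the TAC libraries, at limma adjusted p from 0.0592 (without TAC replicate 3) to 0.241 (without MSC replicate 1), and under the scaling (0.0744) and variance (0.0733) alternatives under which Igf2 did not pass. Nov, named after its values were seen, was the other at an unadjusted p under 0.05. The list's median was -0.98, and 6 of its 7 genes were negative. The counts past the adjusted threshold in the 3 lists, 1, 0 and 1, were the same with the replicate block, while those at an unadjusted p under 0.05 went from 2, 1 and 2 to 4, 2 and 3. Over all genes the share at that unadjusted level went from 6.43% to 10.9% for higher values in MSCs and from 5.42% to 9.43% for higher values in TACs.

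**Figure D5:**
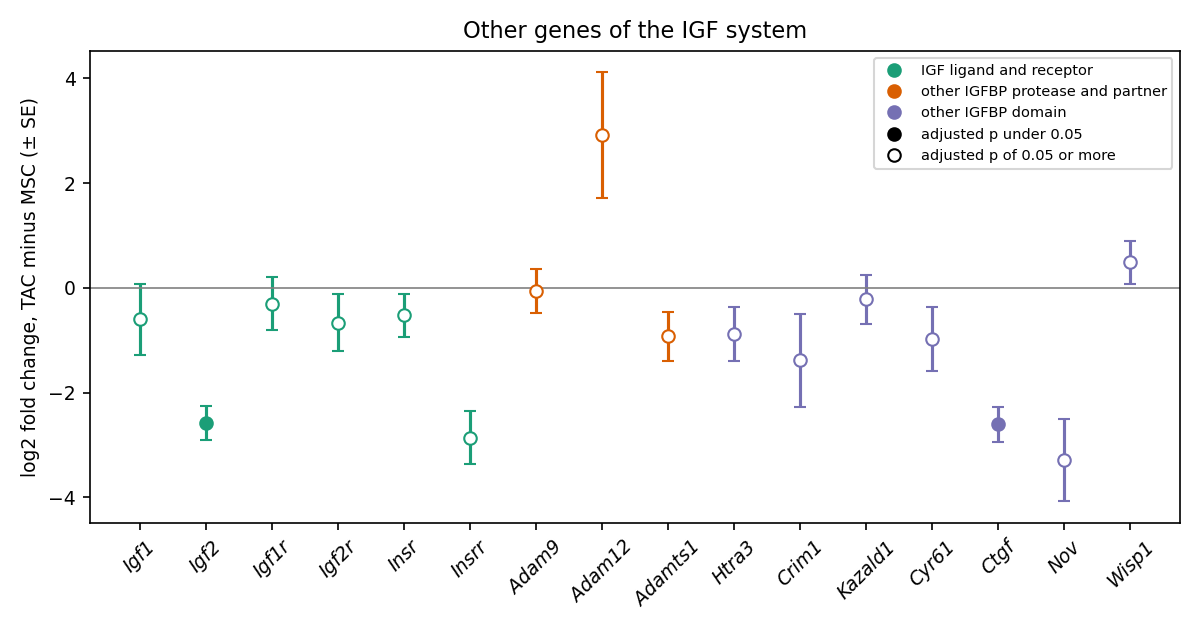
Log2 fold change of TAC against MSC (limma, log2(value + 1) scale, ± SE, 3 samples per group) for tested genes of the IGF system outside the set, coloured by list and filled where the adjusted p was under 0.05. Igf2 and Ctgf are the filled points, both below 0, and Adam12 is the highest point with a wide bar.

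Markers of other cell types were summed in each library, since the captured regions could hold several kinds of cell. The 12 smooth muscle and pericyte markers summed to between 1083 and 1834 in MSC libraries and between 206 and 247 in TAC libraries, and 11 of 12 were higher in every MSC sample, with Cnn1 and Des at 0 reads in some library. The 8 endothelial markers summed to 271 to 288 in MSCs and 84.1 to 127 in TACs, with 5 of 8 higher in every MSC sample. Dental mesenchyme markers, the labelled tissue, were all listed and summed to 713 to 892 in MSCs and 466 to 522 in TACs, with 4 of 8 higher in every MSC sample and 1 lower. The summed smooth muscle, pericyte and endothelial markers were thus higher in MSCs, as were 9 of the 10 members at each replicate number, while 3 of the 8 endothelial markers overlapped between the groups. Over all genes tested, 12.2% were higher in every MSC sample and 12.3% in every TAC sample. The part of these markers in the members' differences was not tested.

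Odontoblast markers summed to 2038 to 14560 in MSCs and 11255 to 15660 in TACs, and epithelial markers to 293 to 3349 and 2066 to 3050. Osteoblast markers summed to 316 to 433 in MSCs and 344 to 1430 in TACs, macrophage markers to 45.5 to 104 and 29.96 to 87.8, Schwann cell markers to 20.2 to 43.2 and 6.09 to 19.2, and dental follicle markers to 104 to 137 and 82.5 to 101. Of these, the Schwann cell and follicle sums were higher in each MSC library, and the other sums overlapped. Gene by gene, 4 of the 6 epithelial markers, Krt14, Krt5, Cdh1 and Epcam, were higher in every TAC sample, with Cdh1 and Epcam at 0 reads in MSC replicate 3, and 0 were higher in every MSC sample. All MSC samples were above all TAC samples for 2 of 5 Schwann cell, 2 of 5 follicle and 1 of 5 macrophage markers, and all TAC samples were above for 1 of 4 osteoblast markers, while 0 of 4 odontoblast markers were separate in either direction. These counts stand beside the same 12.2% and 12.3% of all genes. Skeletal muscle markers stayed at or under 0.481. The part of these cells in the members' values was not tested either.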

How the data were processed

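RNA from laser-captured incisor tissue of 3 mice per group was sequenced as single-end reads on an Illumina HiSeq. By the methods, the authors trimmed them, used mm10 as the genome for alignment with TopHat2 (version 2.0.8) and normalized to RPKM; the submitters' processing notes also name CASAVA 1.8.2 and Partek. The signal values that the authors deposited were not RPKM. In each library most low values were multiples of 1 step shared by all genes. The values were thus treated as read numbers plus 1 read, divided by a size factor per library. Which tool counted the reads, and whether by strand, was not given in the sources used here. Estimated reads were the value over the library's lowest value, minus 1. Between 73.3% and 93.5% of values below 200 reads came out whole (tolerance 0.02), so no count model was used.

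limma 3.58.1 (R 4.3.3) with a variance trend was fitted to log2(value + 1) for genes with a mean of at least 1, without a block, with Benjamini-Hochberg adjustment and a two-sided threshold of 0.05. The design had allowed for RPKM, and the same test on the log scale suited the values found. It was tested on simulated data with independent noise of the same size in every sample. That simulation lacked the departure of replicate 3, so it does not show how the fit behaves with these libraries. Same-numbered MSC and TAC samples deviated together from their group means (correlations across genes of 0.477, 0.465 and 0.517), and the replicate number was also fitted as a block. Cross-numbered samples 1 and 2 correlated as highly (0.462 and 0.480), so the numbers 1 and 2 are not told apart by this check and only replicate 3 stands apart from them. Within a group, replicates 1 and 2 differed by more than counting error (chi-square per degree of freedom 10.3 in MSCs and 8.33 in TACs) and were kept as the separate samples that the labels name. The chi-square covers counting error only and does not show that they came from separate mice. Exon lengths came from GENCODE M21 merged exons.

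The members and lists were chosen with earlier results of these data known. Named were all members, Igf1, Igf2, Igf1r and Igf2r, each other gene of the lists past the adjusted threshold with or without the block, Gli1, Axin2 and Mki67, and the 5 genes nearest to Igfbp3, leaving out predicted genes and Rik clones. Outside that rule, Insrr, Adam12, Nov, Adam9, Kazald1 and single marker genes (Cnn1, Des, Krt14, Krt5, Cdh1 and Epcam) were named after their values were seen. Alternatives were other pseudocounts, filters, scalings and variance models, the block, subsets of the replicates and another length.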

Additional observations from a re-analysis of the deposited data

How the results depend on the processing

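The 9 members fitted kept their direction in each alternative that fitted them. These were 17 for 7 of them and 16 for Igfbp2 and Igfbp6, which a minimum mean of 10 left out. The filters, the missing variance trend, the block and the batch term could change only SE and p, so direction was fixed there. Log2 fold changes ran from -5.53 to -4.56 for Igfbp3, -4.09 to -2.13 for Igfbp6 and -3.32 to -2.55 for Igfbp5. The range was -2.50 to -1.95 for Stc2, -2.53 to -0.99 for Igfbp2 and -2.33 to -1.48 for Igfbp7. It was -1.79 to -1.07 for Igfbp4, -1.83 to -0.18 for Pappa and -1.45 to -0.74 for Htra1. The count of calls by limma did not stay the same. Against 65 genes in all, 2 members, 1 ligand or receptor gene, 0 further proteases and 1 gene with the binding protein domain, a pseudocount of 0.25 called 38 genes and 1 member, a pseudocount of 4 called 77 genes and 3 members, no filter on low values called 49 genes and 1 member, a minimum mean of 10 called 60 genes and 2 of 7 members, median-ratio scaling called 23 genes, 1 member and 0 of both lists, quantile normalization called 114 genes and 3 members, and no variance trend called 29 genes, 1 member and 0 of both lists. The replicate block called 229 genes and 4 members. Replicates 1 and 2 alone called 6796 genes, 9 members, 6 ligand or receptor genes, 2 proteases and 5 domain genes, and replicate 3 as a batch term called 1814 genes, 8 members, 2 and 2. Averaging replicates 1 and 2, chosen after seeing the data, called 10 genes, 1 member (Igfbp3), 0 and 0. Igfbp4, Igfbp7 and Stc2, which had passed with the block, did not pass with this averaging. Leaving out 1 sample gave 0 to 292 genes, 0 to 3 members, 0 to 2 ligand or receptor genes and 0 to 2 domain genes. The 0 came without replicate 1 or 2 of either group, where 1028 to 1367 genes passed an unadjusted p of 0.05, and the 292 came without MSC replicate 3; without TAC replicate 3 it was 36. Of the single genes, whose log2 fold changes of TAC against MSC follow, Igf1r ran from -0.77 to 0.071 over the fits that left out 1 sample (positive without TAC replicate 3), Adam9 from -0.26 to 0.25, Kazald1 from -0.56 to 0.087 (positive without TAC replicate 1) and Axin2 from -0.084 to 1.0101 (negative without MSC replicate 3). Adam9 was at 0.068 in replicates 1 and 2 alone. With the longest transcript as the length, the Igfbp4 share in TACs was 63.3%. The third replicates differ from the others in depth and composition, and the cause was not tested. The number of samples, 3 per group, limits the precision of every value, and 0 reads in a library give only an upper limit.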
